A study of Mus musculus with 2 samples.

Results

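The 6 genes described here encode proteins that take up, bind or break down retinoids: *Rbp7*, *Crabp1* and *Crabp2*, which encode intracellular retinoid binding proteins, *Stra6*, which encodes a membrane transporter of retinol, and *Cyp26a1* and *Cyp26b1*, which encode enzymes that break down retinoic acid. They were taken by symbol from the 32285 genes of the count matrices, and each matched 1 row. The cells were UV-positive lung cells, sorted live and as scatter singlets by the blue emission of their own retinoids, taken from male mice of the C57BL/6 strain, wild type in genotype and 3 months old. Libraries 1 and 2, made on separate occasions with the 10x Genomics 3' chemistry, were replicates of this single condition, and the sources used here do not give the number of mice in each. The sort kept only cells with emission, so no unsorted or retinoid-free cells served as a control.

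The 9669 barcodes of library 1 held 48762735 unique molecular identifiers (UMIs), and the 10050 of library 2 held 93970185. Barcodes under 200 genes or over 10% mitochondrial UMIs were left out, and 9634 and 9988 remained in libraries 1 and 2, with medians of 4480.0 and 7577.5 UMIs. A kept barcode was assigned to a class when it held at least 3 UMIs summed over that class's gate genes (*Col1a2*, *Mfap4* and *Pdgfra* for stromal, *Cdh5*, *Pecam1* and *Egfl7* for endothelial, *Epcam*, *Cdh1* and *Lamp3* for epithelial, *Ptprc*, *Laptm5* and *Cd52* for immune cells) and under 3 for each other class. This gave 7645 and 7438 stromal, 56 and 360 endothelial, 930 and 101 epithelial, and 266 and 334 immune cells in libraries 1 and 2. Stromal cells with at least 3 *Dcn* UMIs were called adventitial (1017 and 998), those without a *Dcn* UMI alveolar (5805 and 5545) and the rest other stromal (823 and 895). Endothelial cells with more *Car4* and *Ednrb* than *Gpihbp1* and *Plvap* UMIs were called aerocytes (11 and 66 cells), against 45 and 294 other endothelial cells. Lists of 10 reference genes that were not used for gating had their highest summed level in their own class in both libraries. Barcodes that passed the gates of 2 or more classes were left out of the classes, and made up 4.36% of kept barcodes in library 1 and 16.4% in library 2. The libraries had 23 barcode sequences in common, which held 3 UMIs of the 6 genes: 2 of *Crabp1* in library 1 and 1 of *Cyp26b1* in library 2.

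Retinol enters cells by diffusion or through Stra6, is held in the cytoplasm by cellular retinol binding proteins, and is either esterified by Lrat for storage or oxidized to retinoic acid. Crabp1 and Crabp2 bind retinoic acid in the cytoplasm, and Crabp2 carries it to nuclear receptors. The Cyp26 enzymes oxidize retinoic acid to polar products and so limit where it can act, and *Cyp26a1* is a textbook target of the retinoic acid receptors, which bind direct repeats of a hexamer half-site.

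In the GRCm38 annotation (GENCODE M21), *Cyp26b1* (ENSMUSG00000063415) lay on the minus strand at chr6:84571414-84593908 and *Cyp26a1* (ENSMUSG00000024987) on the plus strand at chr19:37697798-37701536. *Crabp1* (ENSMUSG00000032291) was at chr9:54764748-54773110 on the plus strand, *Crabp2* (ENSMUSG00000004885) at chr3:87948666-87953376 on the plus strand and *Rbp7* (ENSMUSG00000028996) at chr4:149449687-149454978 on the minus strand, and none of these 5 overlapped another annotated gene. *Stra6* (ENSMUSG00000032327, chr9:58063788-58153996, plus strand) overlapped *Ccdc33* on the other strand and *Gm16131* on the same strand. RefSeq promoter windows (GRCm38.p6, 250 bases before to 50 after a transcript start) were held for 5 of the 6 genes, all but *Crabp2*, in 8 windows. The windows of the Cyp26 enzymes are shown because the pair differed in these cells, *Cyp26b1* with 148 and 916 UMIs and *Cyp26a1* with 1 in each library. Capitals mark TATAAA and a direct repeat with a spacer of 5 bases (both strands searched, with each half-site AGGTCA or its variants AGTTCA, or GGGTCA, or GGTTCA).
Cyp26a1 (chr19:37697558-37697857, plus strand): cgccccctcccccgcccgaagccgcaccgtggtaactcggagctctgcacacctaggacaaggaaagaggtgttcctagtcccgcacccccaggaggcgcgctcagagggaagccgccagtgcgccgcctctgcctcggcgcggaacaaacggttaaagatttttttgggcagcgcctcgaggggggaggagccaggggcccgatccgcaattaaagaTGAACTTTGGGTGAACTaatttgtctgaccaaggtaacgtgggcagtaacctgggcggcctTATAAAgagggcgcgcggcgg
Cyp26b1 (chr6:84593761-84594060, minus strand): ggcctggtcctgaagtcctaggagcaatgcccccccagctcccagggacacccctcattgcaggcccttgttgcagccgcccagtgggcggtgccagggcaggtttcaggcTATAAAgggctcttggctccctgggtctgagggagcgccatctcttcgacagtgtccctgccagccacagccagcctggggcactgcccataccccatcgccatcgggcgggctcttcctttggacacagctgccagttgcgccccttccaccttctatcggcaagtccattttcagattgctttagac

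The window of *Cyp26a1* held 1 such repeat, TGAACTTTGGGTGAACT, read as the half-site AGTTCA at both ends on the opposite strand and starting 32 bases before the transcript start. The same repeat was found in 0.0974% of 32851 promoter windows of this length. No window of the other 4 genes held it, and none of the 8 windows held a repeat of the same half-sites with a spacer of 1 or 2 bases. TATAAA, on either strand and present in 13.6% of all windows, occurred in the windows of *Cyp26a1* and *Cyp26b1*. Its first base lay at 29, after the transcript start, in *Cyp26a1* and at -139, before it, in *Cyp26b1*. A match describes letters in the window and is not a measured binding site.

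*Cyp26b1*, the retinoic acid hydroxylase, was the most abundant of the 6 genes, with 148 UMIs in library 1 and 916 in library 2, and its highest level was in endothelial cells. Levels are given as CPM, the summed UMIs of a gene in a group of cells and library, scaled to the same total in every group. UMIs of the 3' chemistry count molecules and do not grow with transcript length. In endothelial cells *Cyp26b1* was at 218 CPM in library 1 (26 UMIs of 119534, exact Poisson 95% interval 142 to 319) and at 63.3 CPM in library 2 (117 of 1848091, 52.4 to 75.9). In stromal cells it was at 1.93 and 1.30 CPM, from 66 and 76 UMIs. Epithelial and immune cells each held 1 UMI in library 1 (0.116 and 1.14 CPM) and none in library 2, where 3 UMIs would have made 2.20 and 1.65 CPM. Both libraries thus had the endothelial class highest by a wide margin, and the 2 endothelial values differed beyond their counting intervals. Intervals and floors cover counting error only.

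**Figure D1:**
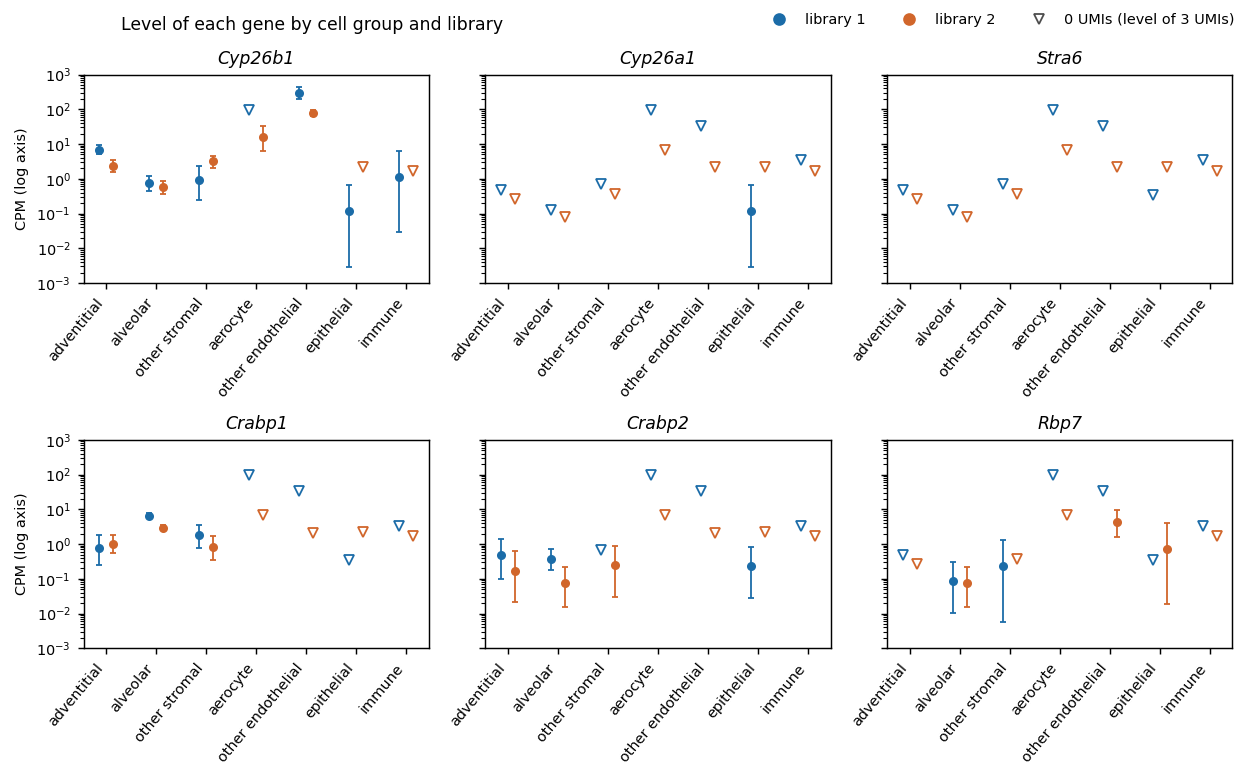
CPM (log axis) of each of the 6 genes in 7 cell groups, 1 point per library with its exact 95% Poisson interval; open triangles mark groups with 0 UMIs, drawn at the level that 3 UMIs would have made. *Cyp26b1* was highest in endothelial cells other than aerocytes, at 293 and 77.9 CPM, *Crabp1* had UMIs in stromal groups alone, and *Cyp26a1* and *Stra6* had 1 and 0 UMIs in the groups shown.

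Between classes, *Cyp26b1* alone of the 6 genes passed the filter on low counts. On sums per library it was higher in endothelial than in stromal cells by 5.89 ± 0.44 on the log2 scale (SE, n = 2 libraries per class, edgeR's quasi-likelihood test with a library block, adjusted p = 2.9e-11 by the Benjamini-Hochberg method over 11815 genes). In this comparison 32.1% of the genes tested passed the threshold of 0.05. The endothelial level exceeded the stromal level 112-fold in library 1 (95% interval of the ratio 68.6 to 180) and 48.8-fold in library 2 (36.3 to 66.1). Cells were not counted as replicates and these tests rest on 2 libraries, whose spread may be technical.

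*Cyp26b1* was also higher in endothelial than in epithelial cells (log2 difference 9.68 ± 0.79, adjusted p = 2.0e-10 by edgeR) and than in immune cells (7.60 ± 0.77, adjusted p = 1.2e-08). Among all genes tested, 39.7% and 37.1% passed in these comparisons. With 1 UMI in each of these classes, the size of both differences was poorly known: in library 1 the endothelial level was 1882-fold the epithelial level with an interval from 309 to 77142, and in library 2 it was at least 28.8-fold higher than the epithelial and at least 38.3-fold higher than the immune level. Stromal cells exceeded epithelial cells by 3.79 ± 1.06 (adjusted p = 0.0045 by edgeR, 46.0% of genes passed), a call that was lost without the library block (adjusted p = 0.066) and that rests on the same single epithelial UMI. The stromal and immune classes did not differ beyond the spread (1.71 ± 1.27, adjusted p = 0.28 by edgeR, 50.7% of genes passed), nor did the epithelial and immune classes (-2.08 ± 2.21, adjusted p = 0.47, 47.3% passed). The endothelial class was therefore first. Of the other 3 classes only stromal and epithelial cells were separated, by the call that was lost without the block, and the place of the immune class was not resolved.

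**Figure D2:**
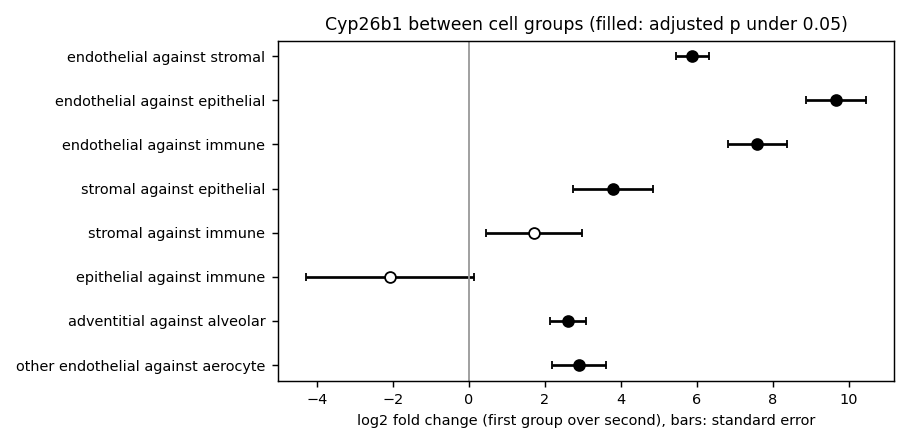
log2 fold change of *Cyp26b1* (first group over second) in 8 comparisons of summed counts, with its standard error (n = 2 libraries per group); filled points passed an adjusted p of 0.05. The endothelial comparisons lie farthest to the right, at 5.89, 7.60 and 9.68, and 2 comparisons with immune cells did not pass.

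A *Cyp26b1* UMI was found in 25.0% of endothelial cells in library 1 (14 of 56, exact Clopper-Pearson 95% interval 14.4 to 38.4%) and in 18.9% in library 2 (68 of 360, 15.0 to 23.3%). The corresponding shares were 0.719% and 0.672% of stromal cells. Immune cells, taken as the background class, had medians of 3024 and 4552 UMIs against 1899.5 and 4028.5 in endothelial cells. Their shares were 0.376% (1 of 266, interval 0.00952 to 2.08%) and 0 of 334, with an upper bound of 1.10% by the same method and of 0.898% from 3 counts. Thinned to 2000 UMIs a cell, with 30 and 48 shallower endothelial cells left out, the endothelial shares were 19.2% and 11.9% and the stromal shares 0.335% and 0.284%. Thinned to 1000 UMIs, with 5 and 20 endothelial cells left out, the endothelial shares were 21.6% (11 of 51) and 6.47% (22 of 340), so the libraries moved in opposite directions over different sets of cells. Of the positive endothelial cells, 6 of 14 and 22 of 68 held 2 or more UMIs, and the highest held 4 and 11. The transcript was therefore spread over many endothelial cells in both libraries rather than held by a single barcode.

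Within the endothelium, aerocytes, the large *Car4*-expressing capillary cells that line the gas exchange surface, had less *Cyp26b1* than the other endothelial cells. The 11 aerocytes of library 1 held no UMI, where 3 UMIs would have made 97.5 CPM, and the 66 of library 2 held 7 (16.0 CPM). Other endothelial cells were at 293 and 77.9 CPM, from 26 and 110 UMIs. The difference was 2.90 ± 0.70 on the log2 scale (adjusted p = 0.027 by edgeR over 13113 genes, 2.19% of which passed), and the ratio within library 2 was 4.86 (95% interval 2.28 to 12.4). Without the library block the call was lost (adjusted p = 0.18 by edgeR). In library 1 the lower 95% limit of the ratio of other endothelial cells to the 11 aerocytes was 2.27.

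Finer endothelial groups were set by marker sums, cells that matched more than 1 set were left out, and the levels are descriptions. Cells with at least 2 UMIs of the arterial markers *Gja5*, *Dkk2*, *Bmx* and *Gja4* were at 398 CPM in library 1 (8 cells, 7 UMIs) and 62.0 CPM in library 2 (70 cells, 32 UMIs). Cells with venous markers (*Slc6a2*, *Ackr1*, *Amigo2* and *Car8*) were at 123 CPM (3 cells, 1 UMI) and 214 CPM (17 cells, 22 UMIs). Capillary cells other than aerocytes were at 295 CPM (32 cells) and 62.1 CPM (203 cells). The arterial and other capillary levels lay within each other's intervals in both libraries. The venous interval of library 2, 134 to 324 CPM, lay above the arterial one of 42.4 to 87.5 CPM, whereas the 3 venous cells of library 1 gave no resolution. The 2 cells with lymphatic markers, both in library 2, held no *Cyp26b1* UMI.

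In stromal cells *Cyp26b1* was higher in adventitial than in alveolar cells. Adventitial cells, which surround vessels and airways, were at 6.95 CPM in library 1 (44 UMIs) and 2.33 CPM in library 2 (27 UMIs). Alveolar cells, the stromal cells without a *Dcn* UMI, were at 0.768 and 0.593 CPM (18 and 23 UMIs). Both names rest on *Dcn* UMIs alone, without a marker of lipid or position. The 2 groups also differed in depth, with medians of 6034.0 and 10655.5 UMIs in adventitial and 3958.0 and 6545.0 in alveolar cells of libraries 1 and 2. The difference was 2.61 ± 0.48 on the log2 scale (adjusted p = 0.00043 by edgeR), in a comparison in which 11.9% of the genes tested passed. The ratio was 9.05 in library 1 (95% interval 5.12 to 16.6) and 3.93 in library 2 (2.17 to 7.18). Other stromal cells, with 1 or 2 *Dcn* UMIs, were at 0.915 and 3.15 CPM, and 1 stromal cell of library 2 held 9 UMIs. The adventitial signal lay outside cells with *Pi16*, a marker of a distinct adventitial fibroblast state: the 227 and 79 stromal cells with *Pi16* and at least 3 *Dcn* UMIs held no *Cyp26b1* UMI, where 3 would have made 2.11 and 2.98 CPM. Those limits are of the size of the adventitial level in library 2, so the absence was informative in library 1 alone.

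**Figure D3:**
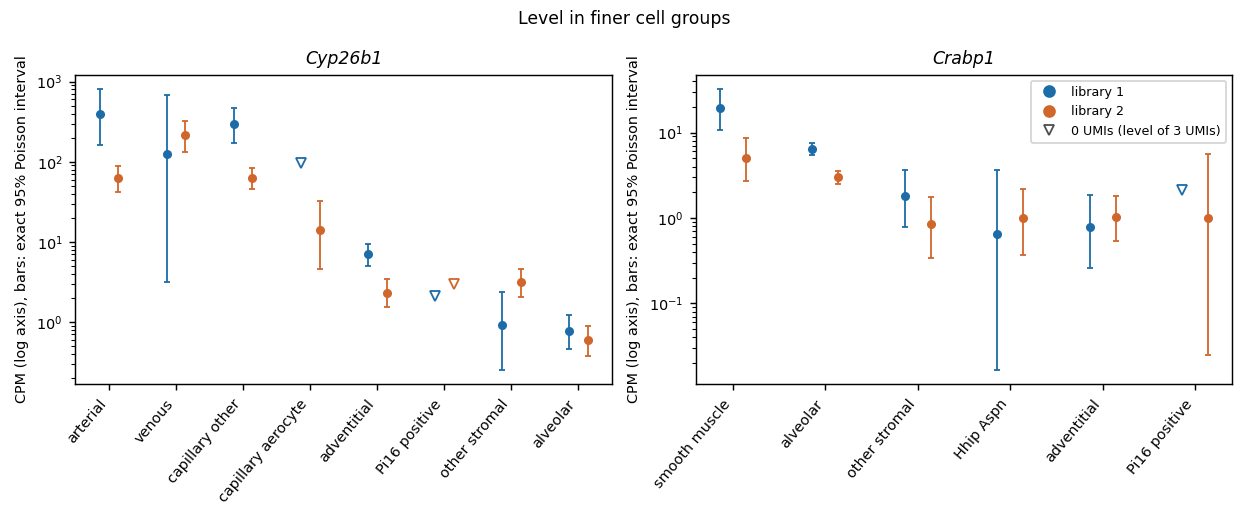
CPM (log axis) of *Cyp26b1* in endothelial and stromal groups and of *Crabp1* in stromal groups, 1 point per library with its exact 95% Poisson interval and open triangles for groups with 0 UMIs; groups set by markers overlap the *Dcn* groups. *Cyp26b1* was at 62.0 CPM or more in arterial, venous and other capillary cells and at 6.95 CPM or less in the *Dcn* groups, and *Crabp1* was highest where smooth muscle markers were present, at 19.5 and 5.06 CPM.

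Transcripts of endothelial cells were also present in stromal cells, and their level is given beside the stromal *Cyp26b1*. The median of the 10 endothelial reference genes (*Cldn5*, *Ramp2*, *Calcrl*, *Tmem100*, *Emcn*, *Tie1*, *Robo4*, *Ptprb*, *Cd93* and *Esam*) in stromal cells was 0.115% of their endothelial level in library 1 and 0.203% in library 2. *Cyp26b1* in stromal cells was at 0.889% and 2.05% of its endothelial level, above 9 of the 10 genes in each library. The exception was *Tmem100*, at 5.21% and 12.7%. In adventitial cells *Cyp26b1* was at 3.20% and 3.68% of the endothelial level, against reference medians of 0.0393% and 0.142%, above all 10 genes in library 1 and 9 of 10 in library 2. In alveolar cells it was at 0.353% and 0.937%, above 7 and 9 of 10. The part of endothelial RNA in these stromal values was not tested.

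**Figure D4:**
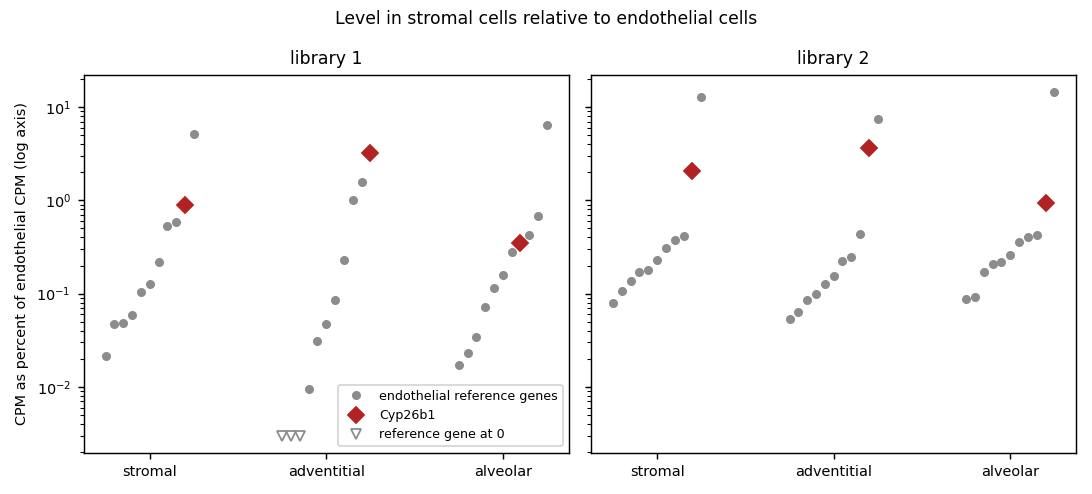
CPM in stromal groups as a percent of the CPM in endothelial cells (log axis), for *Cyp26b1* (diamonds) and the 10 endothelial reference genes (circles, ordered by value, with open triangles for genes at 0), by library. In adventitial cells *Cyp26b1* lay at 3.20% and 3.68%, and in both libraries *Tmem100* was the highest reference gene.

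Most *Cyp26b1* UMIs of library 2 were outside the 4 classes. Of its 916 UMIs, 722 (78.8%) were in barcodes that passed the gates of 2 or more classes, and 714 of these were in barcodes that passed the endothelial gate. In library 1, 53 of 148 UMIs (35.8%) were in such barcodes, 50 of them with the endothelial gate. Barcodes that passed the stromal and endothelial gates alone numbered 86 in library 1 and 931 in library 2, and held *Cyp26b1* at 86.0 and 38.6 CPM, between the stromal and endothelial levels of the same library. A UMI was found in 32.6% and 30.7% of them. Barcodes with stromal and immune gates in library 2 were at 0.452 CPM (2 UMIs in 251 barcodes). The barcodes with stromal and endothelial gates alone had medians of 6001.0 and 14766.0 UMIs, against 4297.0 and 7083.5 in stromal cells. What part they hold of the level of a single cell was not tested.

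**Figure D5:**
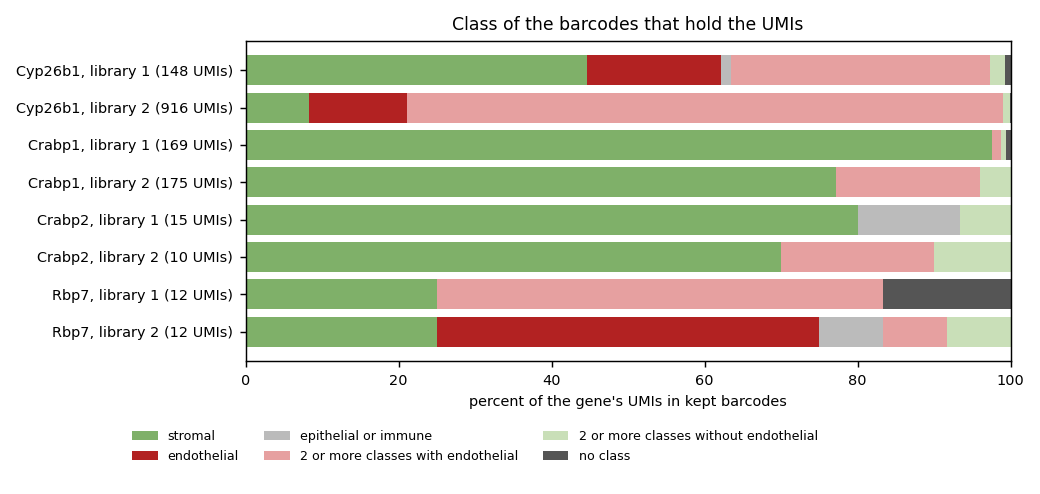
Percent of each gene's UMIs, in kept barcodes, that lay in barcodes of a single class, of 2 or more classes with or without the endothelial gate, or of no class, by library. The pink segment of *Cyp26b1* in library 2 holds 714 of 916 UMIs, whereas 165 of the 169 *Crabp1* UMIs in library 1 lay in stromal cells.

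*Crabp1*, which binds retinoic acid in the cytoplasm, was detected in stromal cells and in no cell of another class. Stromal cells held 165 UMIs in library 1 (4.83 CPM, exact 95% interval 4.12 to 5.63) and 135 in library 2 (2.30 CPM, 1.93 to 2.73). A UMI was found in 1.81% and 1.47% of them, 138 and 109 cells, of which 24 and 20 held 2 or more. Endothelial, epithelial and immune cells held 0 UMIs in both libraries. For epithelial cells of library 1 the lower 95% limit of the ratio of the stromal level was 11.2-fold. For immune cells this limit was 1.14-fold in library 1 and 1.12-fold in library 2, and for endothelial cells 1.14-fold in library 2. For epithelial cells of library 2 it was 0.841-fold, so a higher stromal level was not shown there. In the 56 endothelial cells of library 1, where 3 UMIs would have made 25.1 CPM, a level equal to the stromal one was not detectable.

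Transcripts of stromal cells were present in the other classes. The median of the 10 stromal reference genes in endothelial cells was 5.20% and 3.22% of their stromal level, and in epithelial cells 1.57% and 3.49%. At *Crabp1*'s stromal level, such percentages would lie below 1 UMI in the endothelial sums and could not be detected. Fitted without the filter on low counts, *Crabp1* differed between stromal and endothelial cells (adjusted p = 0.032 by edgeR), epithelial cells (adjusted p = 1.2e-05) and immune cells (adjusted p = 0.0082), with no fold change given because the lower group was at 0. Of the 21350 genes in that fit, 20%, 29.9% and 32.3% passed in these comparisons. The p-values of that fit were far smaller than those of the main test at a similar standard error. For *Cyp26b1* in endothelial over stromal cells, edgeR's adjusted p was 4.1e-35 without the filter and 2.9e-11 with it. Calls made without the filter are therefore weaker evidence than calls of the main test.

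Within the stroma *Crabp1* had the opposite distribution to *Cyp26b1*. Alveolar cells were at 6.49 CPM in library 1 (152 UMIs) and 2.99 CPM in library 2 (116 UMIs), and adventitial cells at 0.790 CPM (5 UMIs) and 1.04 CPM (12 UMIs). The alveolar level was 8.21-fold the adventitial level in library 1 (95% interval 3.44 to 25.6) and 2.89-fold in library 2 (1.59 to 5.75). The filter on low counts removed *Crabp1* from the main test, and without the filter adventitial cells were lower by 2.09 ± 0.43 on the log2 scale (edgeR log2 fold change -2.09, adjusted p = 4.0e-05), where 9.36% of the genes in that fit passed. That p is lenient: for *Cyp26b1* in the same comparison, edgeR's adjusted p was 6.5e-12 without the filter and 0.00043 with it. Other stromal cells were at 1.83 and 0.849 CPM. Stromal cells with at least 3 UMIs of the smooth muscle markers *Myh11*, *Actc1*, *Cnn1* and *Des* were at 19.5 CPM in library 1 (14 UMIs in 123 cells, interval 10.7 to 32.7) and 5.06 CPM in library 2 (13 UMIs in 271 cells, 2.69 to 8.65). That interval lay above the alveolar one in library 1 and overlapped it in library 2. Cells with *Hhip* or *Aspn* were in libraries 1 and 2 held 1 and 6 UMIs, in 239 and 536 cells.

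Genes in *Crabp1*-positive stromal cells were compared with those in the other stromal cells after each cell was thinned to 2000 UMIs, with 129 and 109 positive cells in libraries 1 and 2. Of 2600 genes at 50 CPM or more in the positive cells, those higher there in both libraries were ranked by the geometric mean of the 2 ratios. The first 5 were *Hopx*, *Des*, *Dexi*, *Lxn* and *Fbxo30*. *Hopx*, a homeodomain cofactor, was at 143 CPM in positive and 67.2 CPM in other cells of library 1, and at 183 and 86.0 CPM in library 2. *Des*, the muscle intermediate filament desmin and one of the smooth muscle markers above, was at 136 against 58.6 CPM and at 101 against 57.0 CPM. These ratios are near 2 and are descriptions without a test.

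*Crabp2*, which carries retinoic acid to nuclear receptors, had 15 UMIs in library 1 and 10 in library 2. Stromal cells held 12 and 7 of them (0.352 and 0.119 CPM), each in a different cell, and epithelial cells held 2 and 0. Adventitial cells were at 0.474 and 0.173 CPM and alveolar cells at 0.384 and 0.0773 CPM, with overlapping intervals in both libraries. At this depth no order among cell groups was detectable. Across all kept barcodes, *Crabp1* exceeded *Crabp2* in both libraries, at 3.47 against 0.308 CPM and at 1.87 against 0.107 CPM.

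*Rbp7*, a retinol binding protein of adipose tissue and capillary endothelium, had 12 UMIs in each library. Library 1 had 0 UMIs in endothelial cells, 3 in stromal cells and 7 in 2 barcodes that passed the stromal and endothelial gates. Library 2 had 6 UMIs in endothelial cells (3.25 CPM, exact 95% interval 1.19 to 7.07), 3 in stromal cells (0.0512 CPM) and 1 in epithelial cells. The endothelial level of library 2 was 63.4-fold the stromal level (95% interval 13.5 to 392), and library 1, with 119534 endothelial UMIs, could not show it. That ratio rests on 6 UMIs against 3. The 931 barcodes of library 2 that passed the stromal and endothelial gates alone held 1 *Rbp7* UMI (0.0667 CPM), near the stromal level. Of the 6 endothelial UMIs, 2 were in the 2 cells with lymphatic markers, 1 in an arterial cell, 1 in a capillary cell and the other two in a single cell that matched more than 1 marker set.

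*Stra6*, the retinol transporter, and *Cyp26a1* had 1 UMI each in each library. Both *Stra6* UMIs lay in barcodes that passed the stromal and endothelial gates, so no cell of a single class held one. The stromal sums, at 34131249 and 58609046 UMIs, set the tightest limits, 0.0879 and 0.0512 CPM for 3 UMIs. *Cyp26a1* was found in 1 epithelial cell with type 2 markers in library 1 and in 1 barcode with stromal and endothelial gates in library 2. Endothelial cells, where its relative *Cyp26b1* was highest, held no *Cyp26a1* UMI, which allows up to 25.1 and 1.62 CPM in libraries 1 and 2. Both limits were below the *Cyp26b1* levels of 218 and 63.3 CPM.

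Genes whose levels across the cell groups were most like those of a member are given as descriptions, over 14 sums of 7 groups in 2 libraries that share cells' depth and library. For *Cyp26b1* these were *Batf2*, *Ackr3* and *Prss23*, with Pearson's r of log2(CPM + 1) of 0.96, 0.96 and 0.95 among 10297 genes. *Ackr3*, a scavenging chemokine receptor, was at 214 and 145 CPM in other endothelial cells, 9.96 and 1.12 CPM in adventitial cells and 0.299 and 0.284 CPM in alveolar cells. *Batf2*, ranked first, was at 33.8 and 12.04 CPM in other endothelial cells, 1.90 and 1.55 CPM in adventitial and 1.45 and 1.13 CPM in alveolar cells. In aerocytes of library 2, *Batf2* was at 9.16, *Ackr3* at 43.5 and *Prss23* at 32.1 CPM. In other endothelial cells of that library *Batf2* was at 12.04 CPM, and *Cyp26b1* was at 16.0 CPM in aerocytes against 77.9 CPM. These *Batf2* levels are near the floor. There 3 UMIs make 6.87 CPM in aerocytes, and in other endothelial cells of library 1 they make 33.8 CPM. *Batf2* had no UMI in aerocytes of library 1, so a contrast with *Cyp26b1* was not resolved. For *Crabp1* they were *B530045E10Rik*, *Syt17* and *Fgfr4*, with r of 0.93 for each. *Fgfr4*, a fibroblast growth factor receptor, was at 128 and 61.0 CPM in alveolar and 21.8 and 15.4 CPM in adventitial cells.

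Other genes of retinoid transport, storage, oxidation and signalling were followed as a list of 25, of which 18 passed the filter between classes and 20 between subtypes. The counts that passed are given with the share of all genes tested that passed in the same comparison. Between endothelial and stromal cells 2 of 18 were higher in endothelial and 7 in stromal cells (32.1% of all genes passed), with a median log2 difference of -1.16 against -0.12 over all genes tested. Between stromal and epithelial cells 9 were higher in stromal and 4 in epithelial cells (46.0%). The stromal and immune classes were higher for 10 and 5 genes (50.7%). Endothelial cells were higher than epithelial cells for 5 genes and lower for 5 (39.7%), and against immune cells for 4 and 3 (37.1%). Epithelial and immune cells were each higher for 4 (47.3%). Adventitial exceeded alveolar cells for 6 of 20 genes and fell below them for 1 (11.9%). Of the 20 genes, 1 was higher in aerocytes and 0 in other endothelial cells (2.19%). The shares of the list against immune cells from the endothelial and epithelial classes were near those of all genes.

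The list genes that passed in most comparisons, 6 of 8 each, were *Lrat*, which esterifies retinol for storage, and *Rbp4*, the carrier of retinol in plasma. *Lrat* was at 319 and 141 CPM in stromal cells and 58.6 and 14.1 CPM in endothelial cells, a log2 difference of -3.29 ± 0.32 for endothelial over stromal cells (adjusted p = 3.6e-09 by edgeR), opposite in direction to *Cyp26b1*. Within the stroma *Lrat* was higher in adventitial than in alveolar cells by 0.73 ± 0.20 (adjusted p = 0.018 by edgeR), the same direction as *Cyp26b1*. Its levels were 365 against 296 CPM in library 1 and 232 against 109 CPM in library 2, so the difference was larger in library 2. *Rbp4* was at 769 and 304 CPM in adventitial and 51.5 and 42.2 CPM in alveolar cells, and was higher in adventitial cells by 3.44 ± 0.25 on the log2 scale (adjusted p = 1.9e-09), the same direction as *Cyp26b1*. *Cyp26c1*, the other member of the Cyp26 family, held no UMI in any class of either library.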

How the data were processed

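Single-cell libraries of UV-positive lung cells were sequenced by the authors, who deposited raw UMI counts per gene and barcode, not normalized and before a filter at 200 genes or 10% mitochondrial UMIs. The submitters' processing notes name Cell Ranger 5.0.1 and mm10. Doublets were limited by scatter gates at the sort, and no doublet caller was run on the counts. The 6 genes, the gates and the gene lists were chosen with earlier results of these data known.

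UMIs were summed per library and cell group. Classes and subtypes were compared with edgeR 4.0.16 under R 4.3.3 (TMM, default low-count filter, quasi-likelihood test, two-sided, library as a block), with Benjamini-Hochberg adjustment over all genes tested. The 17 gate genes were left out of the tests and kept in the totals. Genes of like pattern came from genes at 10 CPM or more in a group of both libraries. Genes beside *Crabp1* were at 50 CPM or more in its positive cells, with at least 20 such cells per library, a number that *Cyp26b1* did not reach in endothelial cells. List genes were named where they passed in most comparisons, at most 4, and genes tied at the next place were not named. Alternatives were DESeq2 1.42.0 and its size factors, other cell filters and gates, no block, and each library alone. Promoter sequences are RefSeq's.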

Additional observations from a re-analysis of the deposited data

How the results depend on the processing

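The 6 log2 differences of *Cyp26b1* that passed the test kept their direction in every alternative that gave a value. No value was given where a group held no *Cyp26b1* UMI, as for epithelial cells under gates of 2 UMIs, under strict gates (no UMI of another class's gate) and without the 5% deepest cells. For endothelial over stromal cells the range over 10 alternatives was 5.61 to 6.16, and 5.25 to 6.14 with 1 library left out. Adventitial over alveolar cells ranged from 2.50 to 2.87, with adjusted p up to 0.046. With no replicate block, *Cyp26b1* lost its call for stromal over epithelial cells (3.34, adjusted p = 0.066) and for other endothelial cells over aerocytes (3.43, adjusted p = 0.18), leaving 0 of the 6 genes called in each. The block also moved the number of genes called between subtypes, to 332 for adventitial against alveolar cells (949 with DESeq2) and to 36 for the endothelial subtypes (505 without the filter). Without the filter, 3 of the 6 genes were called between endothelial and stromal cells, 2 between stromal and epithelial cells, 1 between stromal and immune cells and 2 between adventitial and alveolar cells, where 20%, 29.9%, 32.3% and 9.36% of all genes in that fit were called. The p-values of that fit are lenient, as given above for *Cyp26b1*. Size factors in place of TMM moved the median of all genes by -0.11 for endothelial and -0.12 for stromal over immune cells. Thinned to 2000 and 1000 UMIs, the mean share of cells with a UMI was 15.5% and 14.02% for endothelial *Cyp26b1* (19.2% then 21.6% in library 1, 11.9% then 6.47% in library 2), 0.309% and 0.134% for stromal *Cyp26b1* and 0.735% and 0.389% for stromal *Crabp1*. The causes were not tested. In library 1, 3 UMIs make 25.1 CPM over the 56 endothelial cells and 97.5 CPM over the 11 aerocytes, so lower levels could not be detected there.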

Other observations

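Single barcodes held several UMIs of these sparse genes. The highest count of *Rbp7* was 5 UMIs in 1 barcode of library 1 and 2 in library 2, and that of *Cyp26b1* was 5 and 14 over all barcodes. The highest *Crabp1* count was 3 and 5 UMIs. In library 1, the 123 stromal cells with smooth muscle markers held 6 *Cyp26b1* UMIs in 2 cells (8.35 CPM), and the 271 of library 2 held none. These values were picked after they were seen, and no explanation was tested.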
